A study of Mus musculus with 6 samples.

Results

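The genes described here are 37 interferon-stimulated genes and genes of interferon signalling, followed in endothelial cells from the mouse brain. They were taken as a list of symbols from the 23329 symbols counted in each library, and all 37 were present and passed the filter on low counts. The list was drawn up apart from the guanylate-binding proteins and immunity-related GTPases, but it still holds Mx1 and Mx2, which are dynamin-like GTPases, and Ifnar1 and Ifnar2, which are receptor chains rather than typical interferon targets. By role it splits into 25 effectors, 5 sensors of nucleic acids (Zbp1, Ifih1, Ddx58, Dhx58 and Eif2ak2) and 7 signalling genes (Irf1, Irf7, Irf9, Stat2, Usp18, Ifnar1 and Ifnar2). They lie on several chromosomes, with 7 on chromosome 16, among them both receptor chains, Mx1 and Mx2, and 5 on chromosome 5, all of the oligoadenylate synthetase family (GENCODE M21, GRCm38, which also gives the positions below).

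The study compared 3 libraries labelled WT with 3 labelled GLUT1EC-/-, an endothelial-cell-specific knockout of the glucose transporter GLUT1 (gene Slc2a1), all from C57BL/6 mice aged 8 weeks whose cells were lysed uncultured after magnetic bead sorting. The WT mice were littermates of the knockout mice. The labels do not name the Cre driver, the deleted exons or the sex of the mice, and each library carries its own animal number. The total was 31874662 to 39424384 counts per library. Slc2a1 was counted at 3984 to 4479 CPM (counts-per-million, with library sizes scaled by TMM factors) in the WT libraries and at 3735 to 5414 CPM in the libraries labelled GLUT1EC-/-, so its count did not separate the groups and each direction below is between libraries as labelled. All 12 endothelial markers checked were detected, with a summed level of 16980 to 18350 CPM in WT, against 16580 to 19470 CPM in those labelled GLUT1EC-/-. The sum hides differences between single markers. In 3 (Flt1, Tek and Emcn) every library labelled GLUT1EC-/- was below every WT library, against 11.2% of all tested genes. In 2 (Esam and Pecam1) every one was above, against 11.7%. None of the 12 passed the edgeR test described below. GLUT1EC-/- 2 had a scaling factor of 0.884 against 1.01 to 1.05 in the other 5 libraries.

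Type I interferons bind the receptor formed by Ifnar1 and Ifnar2. The receptor's kinases then activate a complex that includes Stat2 and Irf9 and binds the interferon-stimulated response element (ISRE) in the promoters of target genes. Interferon gamma acts through another receptor, and its signal reaches the gamma-activated sequence (GAS) in promoters. The targets encode proteins that degrade, trap or modify viral RNA and proteins, and also sensors and transcription factors that feed back into the same pathway. Many cell types, endothelial cells among them, are known to keep a basal level of these transcripts through tonic signalling at the receptor.

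The promoters of the listed genes are shown first, because a shared element in them is the textbook basis for the group. RefSeq promoter windows on GRCm38.p6, from 250 bases before to 50 bases after the start site, were at hand for 27 of the 37 genes, 31 windows in all. They did not include Oas2, Ifi27l2a, Rtp4, Mx1, Mx2, Parp9, Parp14, Zbp1, Dhx58 and Usp18. The ISRE core was searched as GAAANNGAAA on both strands, and matches may overlap each other. It was found in the windows of 13 of the 27 genes (48.1%), against 1079 of all 27025 genes in the table (3.99%) and 388 of the 10430 tested genes in it (3.72%). By role it was found in 9 of 18 effectors, 3 of 3 sensors and 1 of 6 signalling genes. In 9 of the 13 genes a match lay before the start site. In the other 4, Ifitm3 and the sensors Ifih1, Ddx58 and Eif2ak2, matches lay only after it. The GAS core, TTCNNNGAA, was found in 9 of 27 (33.3%), against 9.55% of all genes in the table. Irf1, Ifnar1, Ifnar2, Ifit2 and Ifi35 held a GAS core and no ISRE core, and in Bst2 and Ifitm3 the GAS core overlapped an ISRE core. The windows below are the 150 bases before the start site of the genes that passed the test between the groups and held an ISRE core, with the ISRE core in capitals.
Rsad2 (chr12:26456453-26456602, minus strand): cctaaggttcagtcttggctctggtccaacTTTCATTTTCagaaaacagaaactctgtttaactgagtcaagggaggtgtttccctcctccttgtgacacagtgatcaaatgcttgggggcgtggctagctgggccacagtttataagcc
Isg15 (chr4:156200819-156200968, minus strand): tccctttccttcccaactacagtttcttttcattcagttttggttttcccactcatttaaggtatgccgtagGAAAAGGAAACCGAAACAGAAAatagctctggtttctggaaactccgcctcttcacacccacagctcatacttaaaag

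Isg15 held 3 overlapping matches in 1 run, and Rsad2 held 1 match, read on the opposite strand. The genes with the lowest adjusted p among those without a match were Cmpk2 and Xaf1, shown to the same length for comparison, so all their letters are in lower case.
Cmpk2 (chr12:26469065-26469214, plus strand): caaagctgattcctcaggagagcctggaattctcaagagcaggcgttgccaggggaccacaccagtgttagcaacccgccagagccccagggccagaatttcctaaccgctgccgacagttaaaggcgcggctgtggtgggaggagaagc
Xaf1 (chr11:72301479-72301628, plus strand): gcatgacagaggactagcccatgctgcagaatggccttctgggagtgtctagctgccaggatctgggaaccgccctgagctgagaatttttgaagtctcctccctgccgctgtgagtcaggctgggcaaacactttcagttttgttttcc

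A further 4 genes had 2 matches before the start site, and the stretch that holds both is shown to let their spacing be compared.
Ifit1 (chr19:34640780-34640818, plus strand): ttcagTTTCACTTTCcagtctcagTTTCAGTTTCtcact
Ifit3 (chr19:34583368-34583421, plus strand): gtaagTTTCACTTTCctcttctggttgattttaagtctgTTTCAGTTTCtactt
Bst2 (chr8:71537582-71537607, minus strand): tccagGAAAATGAAACTGAAAggctg
Oas1a (chr5:120907526-120907550, minus strand): ctcggGAAATGGAAACTGAAAatct

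The matches of Ifit1 and Ifit3 were the same pair of words in the same order, set apart by a spacer, while those of Bst2 and Oas1a overlapped, as in Isg15. A match was found in 8 of the 18 genes whose groups did not overlap in the counts described next (44.4%) and in 5 of the 9 whose groups overlapped (55.6%), a difference that was not tested. A match describes the letters only, and its absence from Cmpk2 and Xaf1 covers only these windows.

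Across the list, the libraries labelled GLUT1EC-/- held less RNA of most genes. A total of 4 of the 37 genes fell (Rsad2, Cmpk2, Isg15 and Parp14), 0 rose and 33 did not pass the test, an edgeR quasi-likelihood F test called at an adjusted p under 0.05 (Benjamini-Hochberg over all genes). Over all 14838 genes tested, 0.445% fell and 0.863% rose, 1.31% in all. In 24 of the 37 genes every library labelled GLUT1EC-/- was below every WT library (64.9%), and in 0 every one was above, against 11.2% and 11.7% of all tested genes. By value 34 of 37 were lower, the median log2 fold change was -0.55 (0.01 over all tested genes), and 23, all of them lower, had an unadjusted p under 0.05 (62.2%, against 14.5% of all tested genes). The exceptions by value were Ifitm3, Ifi27l2a and Oas3. In bulk RNA, fewer cells that express a gene and less of its RNA per cell cannot be told apart.

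The calls rested on having all 3 WT libraries and GLUT1EC-/- 1, and on a fit without the animal number series. With edgeR, 0 of the 37 genes passed without WT 1, WT 2, WT 3 or GLUT1EC-/- 1 in turn (numbers name the libraries of a label). In these fits 18, 18, 21 and 18 of them had an unadjusted p under 0.05 and a lower value. Over all genes 0, 1, 5 and 32 passed. There 1248, 1444, 1768 and 1746 genes had an unadjusted p under 0.05 in either direction. With the animal number series (200s or 500s) as a term, 0 passed, at edgeR adjusted p = 0.106 for Rsad2, 0.0934 for Cmpk2, 0.126 for Isg15 and 0.149 for Parp14. Over the 14 alternative fits the adjusted p ran from 1.59e-06 to 0.182 for Rsad2 and from 8.99e-08 to 0.16 for Cmpk2. Without GLUT1EC-/- 2, 17 passed, and without GLUT1EC-/- 3, 7 passed. Calls over all genes rose too, to 862 and 283, from 194 with all 6 libraries. DESeq2 on all 6 libraries called 16 of the 37 and 879 of all genes, and limma-voom 3 and 148. The median log2 fold change stayed between -0.61 and -0.51 over these fits.

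**Figure D1:**
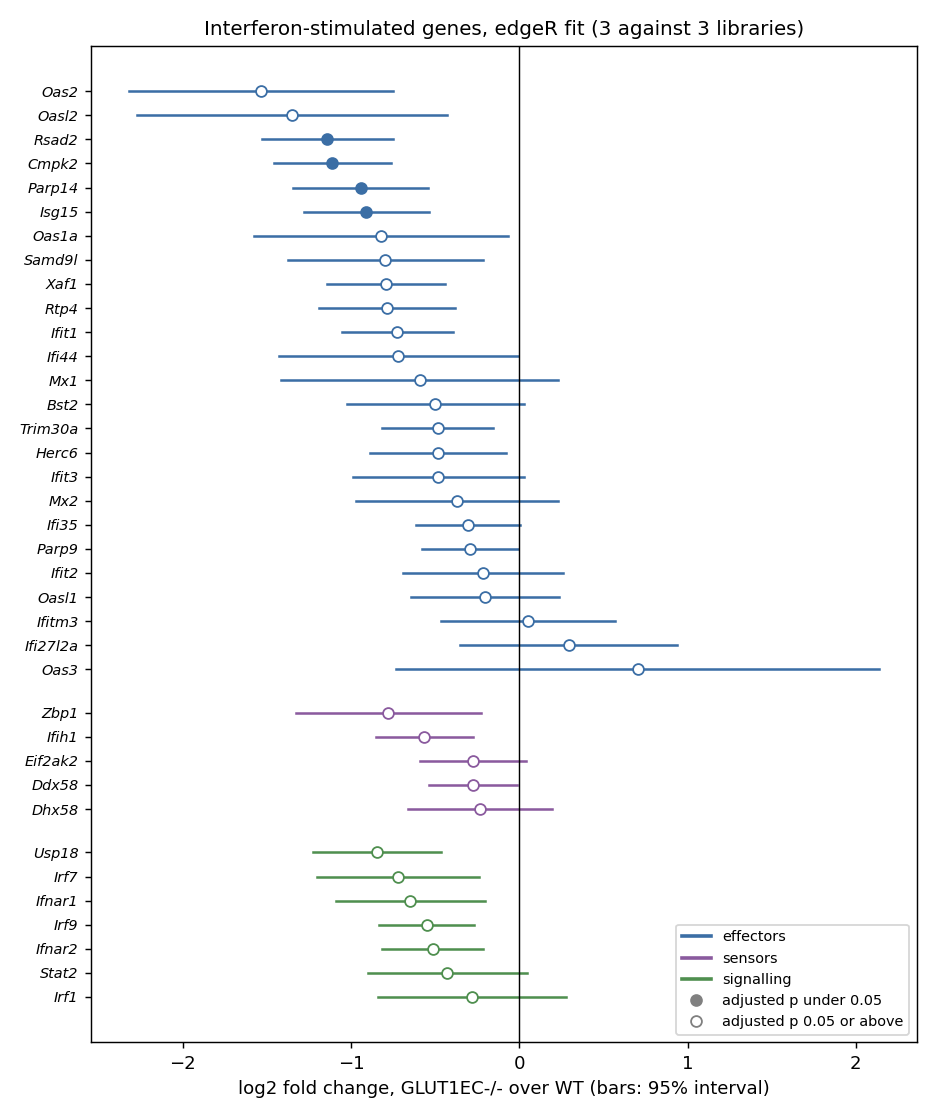
The plot shows the edgeR log2 fold change of each of the 37 genes, with its 95% interval, grouped by role and ordered by size. Filled points mark the 4 genes with an adjusted p under 0.05, and 34 of 37 points lie left of 0.

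Among the effectors, 4 of 25 fell in edgeR (16%, against 0.445% of all genes), 0 rose and 21 did not pass, with a median log2 fold change of -0.59. DESeq2 called 9 of the 25 lower, against 377 of all 14838 tested genes. These were the same 4 and Ifit1, Oas2, Oasl2, Rtp4 and Xaf1. Rsad2 encodes viperin, a radical SAM enzyme that makes a chain-terminating nucleotide from CTP, and it lies on the minus strand of chromosome 12 (26442746 to 26456452, 7 exons). It was counted at 43.4, 40.7 and 39.8 CPM in WT 1 to 3 and at 19.1, 22.3 and 14.8 CPM in GLUT1EC-/- 1 to 3. The groups were far apart, and the highest library labelled GLUT1EC-/- was below each WT library. Rsad2 fell by 54.7%, with a log2 fold change of -1.14 (95% interval -1.53 to -0.75, edgeR adjusted p = 0.024).

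Cmpk2, on the plus strand of the same chromosome (26469204 to 26479837, 5 exons), encodes the nucleotide kinase that supplies viperin with its substrate. The start sites of Rsad2 and Cmpk2 in RefSeq, used for the promoter windows, lie 12763 bases apart. Cmpk2 was at 60.2, 58.5 and 50.1 CPM in WT, against 23.5, 24.2 and 30.5 CPM in those labelled GLUT1EC-/-. It fell by 53.7% (in the same test, log2 fold change -1.11, 95% interval -1.46 to -0.76, edgeR adjusted p = 0.0206). The libraries did not rank alike in the pair: GLUT1EC-/- 3 was the lowest of the 6 for Rsad2 and the highest of its own group for Cmpk2.

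Isg15 encodes the ubiquitin-like protein that is attached to other proteins after interferon exposure (chromosome 4, 156199424 to 156200818, minus strand). It was at 40.1, 35.1 and 35.5 CPM in WT, against 16.5, 19.1 and 23.3 CPM in those labelled GLUT1EC-/-. The level fell by 46.7% (log2 fold change -0.91, 95% interval -1.28 to -0.54, edgeR adjusted p = 0.0431), with no overlap between the groups. Isg15 lost its call with library size alone as the scaling (edgeR adjusted p = 0.0651) and with sex as a term (0.0698), and its adjusted p ran from 9.29e-05 to 0.262 over the 14 alternative fits. Parp14, an ADP-ribosyltransferase on chromosome 16 (35832874 to 35871544, minus strand), was at 132, 130 and 92.0 CPM in WT, against 65.1, 53.5 and 65.8 CPM in those labelled GLUT1EC-/-. Its fall of 48% (edgeR log2 fold change -0.94 at an adjusted p = 0.0494) was just under the threshold, and WT 3 was nearer to the libraries labelled GLUT1EC-/- than WT 1 and WT 2 were. Parp14 passed in 4 of the 14 alternative fits, with an adjusted p of 0.0563 in limma-voom, 0.0508 in edgeR with a filter of 1 CPM in 3 libraries, and 0.000211 to 0.272 over all of them.

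**Figure D2:**
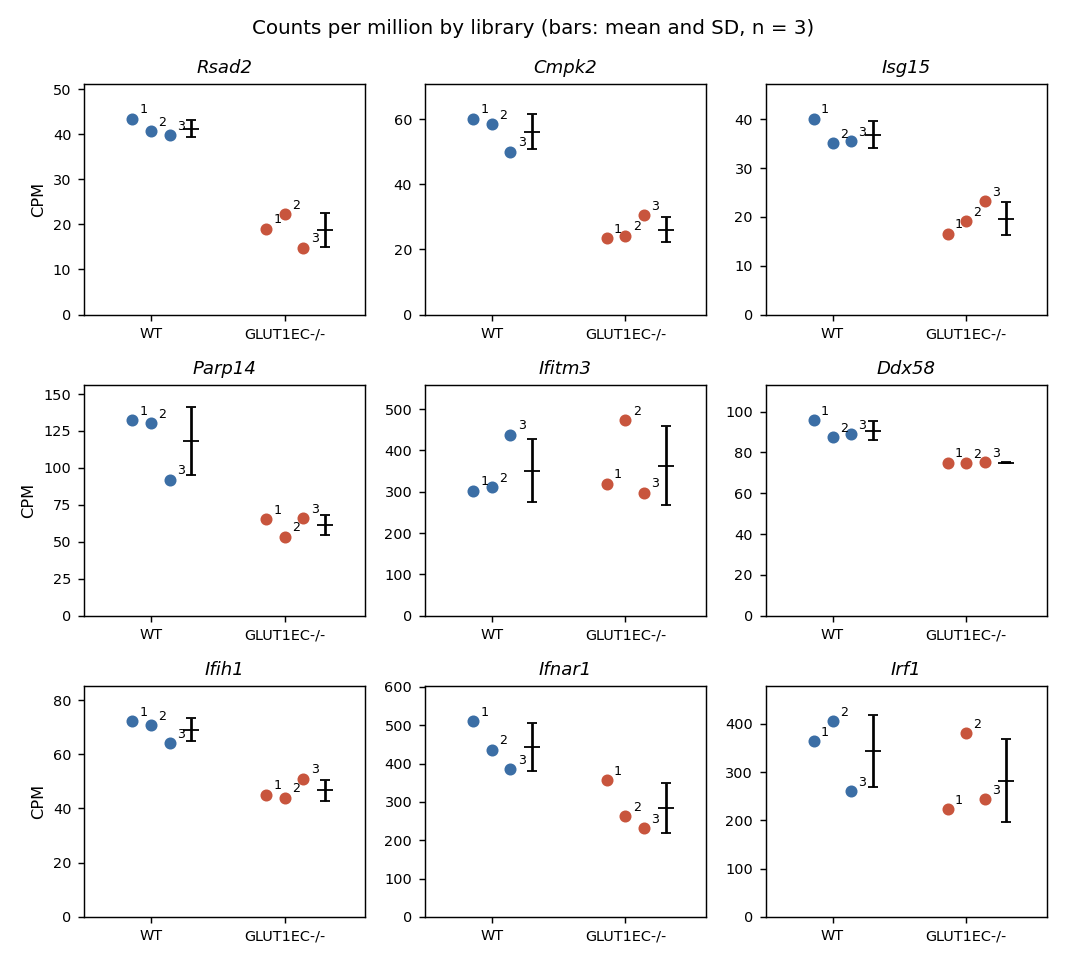
Each panel plots CPM (y axis) in the 3 WT and 3 GLUT1EC-/- libraries, numbered, with the mean and SD beside them, for the 4 genes that fell and the most abundant genes of each role. The groups do not overlap for Rsad2, Cmpk2, Isg15, Parp14, Ddx58, Ifih1 and Ifnar1, and overlap for Ifitm3 and Irf1.

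The largest differences by value belonged to 2 genes that did not pass in edgeR and did in DESeq2. Oas2, a synthetase of the 2'-5' oligoadenylates that switch on RNase L, was at 40.7, 29.2 and 31.9 CPM in WT, against 12.7, 5.83 and 16.5 CPM in those labelled GLUT1EC-/- (log2 fold change -1.54 with SE 0.34, edgeR adjusted p = 0.08). Oasl2, a related protein with a ubiquitin-like tail, was at 108, 85.6 and 121 CPM against 44.7, 16.8 and 61.4 CPM (log2 fold change -1.35 with SE 0.40, edgeR adjusted p = 0.17). In both the groups did not overlap, and GLUT1EC-/- 2 was the lowest library by a wide margin. Values differed within the family. Oas1a had a log2 fold change of -0.82 (SE 0.33), Oasl1 of -0.20 (SE 0.19) and Oas3, at under 1 CPM in each library, of 0.70 (SE 0.62), and none of these passed. Of the 100-base windows of Oas1a transcripts, 40.9% also occur in transcripts of other genes, mainly Oas1g, so its count is uncertain.

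The Ifit genes, a cluster on chromosome 19 whose proteins bind foreign RNA ends, gave 0 calls of 3 in edgeR and 1, Ifit1, in DESeq2. Ifit1 was at 47.5, 47.0 and 45.2 CPM in WT, against 24.8, 32.9 and 26.7 CPM in those labelled GLUT1EC-/-, with no overlap (log2 fold change -0.73 with SE 0.14, edgeR adjusted p = 0.0563). Ifit2 and Ifit3 overlapped between the groups: GLUT1EC-/- 2 held 16.2 and 41.6 CPM, within or above their WT ranges of 13.9 to 15.1 and 38.4 to 47.1 CPM. Ifit3 shares 31.7% of its 100-base windows with other genes, mainly Ifit3b, so its count is uncertain. Ifit3b, counted in these files under an older name, was at 12.4 to 17.6 CPM in WT, against 6.55 to 8.39 CPM in those labelled GLUT1EC-/- and did not pass (edgeR adjusted p = 0.0732).

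Several other effectors had lower values without a call in edgeR, though DESeq2 called Xaf1 and Rtp4. Xaf1, a partner of the apoptosis inhibitor XIAP, was at 35.1 to 43.9 CPM in WT, against 20.6 to 25.5 CPM in those labelled GLUT1EC-/- (edgeR log2 fold change -0.79 at an adjusted p = 0.0524). Rtp4, a receptor chaperone that interferon induces, was at 32.5 to 37.5 and 15.7 to 23.9 CPM (edgeR log2 fold change -0.79 at an adjusted p = 0.082). The groups also stayed apart without a call for Samd9l, Trim30a, Herc6, Ifi35, Parp9 and Oas1a, with log2 fold changes of -0.82 to -0.29. Bst2, which encodes the virion tether tetherin, and Ifi44 overlapped only through GLUT1EC-/- 3, which held 50.4 CPM of Bst2 against 46.8 to 53.7 CPM in WT. Mx1 and Mx2 were low, at 1.49 to 2.13 and 11.7 to 14.4 CPM in WT, and gave no call (log2 fold changes -0.59 and -0.37). Parp9 shares exon positions with Dtx3l on the other strand, so its count is uncertain without a stated strand setting.

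Ifitm3, a membrane protein that blocks virus fusion, encoded on chromosome 7 (141009586 to 141010770, minus strand), was the most abundant effector and showed no difference beyond its spread. It was at 302, 311 and 438 CPM in WT, against 319, 474 and 298 CPM in those labelled GLUT1EC-/- (log2 fold change 0.05, 95% interval -0.46 to 0.57, edgeR adjusted p = 0.93). Its sign depended on the fit and turned negative with library size alone as the scaling (-0.02). Ifi27l2a, which encodes a small membrane protein, was at 3.0 to 4.21 and 3.23 to 5.55 CPM in the groups and did not pass either.

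The sensors had lower values in all 5 cases, and none passed in edgeR (0 of 5, with a median log2 fold change of -0.28). In that test 3 had an unadjusted p under 0.05 (60%, against 14.5% of all tested genes). DESeq2 called Ifih1 and Zbp1 lower, against 377 of all 14838 tested genes. Ifih1 encodes MDA5, which recognises long double-stranded RNA (chromosome 2, 62595798 to 62646255, minus strand). It was at 72.2, 70.8 and 64.2 CPM in WT, against 45.1, 44.0 and 51.0 CPM in those labelled GLUT1EC-/-, without overlap (log2 fold change -0.56 with SE 0.13, edgeR adjusted p = 0.08). Ddx58 encodes RIG-I, the sensor of RNA with a triphosphate end (chromosome 4, 40203773 to 40239828, minus strand). It was at 95.9, 87.5 and 88.9 CPM in WT, against 75.0, 74.7 and 75.1 CPM in those labelled GLUT1EC-/-, a small difference between tight groups (log2 fold change -0.28 with SE 0.11, edgeR adjusted p = 0.316). Zbp1, a sensor of Z-form nucleic acids, was low, at 5.30 to 6.22 CPM against 2.60 to 4.05 CPM (log2 fold change -0.78, SE 0.24). Eif2ak2, the RNA-dependent kinase PKR, and Dhx58, which encodes the regulator LGP2, had log2 fold changes of -0.28 and -0.23. Of the 5 sensors, 4 were lower without overlap (80%, against 11.2% of all tested genes) and only Dhx58 overlapped between the groups. The gap for Eif2ak2 was narrow, with WT 3 at 47.3 CPM and GLUT1EC-/- 2 at 46.6 CPM (edgeR adjusted p = 0.412).

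The signalling genes also had lower values in 7 of 7 cases with 0 calls in edgeR. In that test 5 had an unadjusted p under 0.05 (71.4%, against 14.5% of all tested genes). The groups did not overlap for 5 of them (71.4%), against 11.2% of all tested genes that were lower without overlap. DESeq2 called the same number lower, Irf7, Irf9, Usp18, Ifnar1 and Ifnar2, against 377 of all 14838 tested genes. The receptor chains were among the most abundant genes of the list. Ifnar1 (chromosome 16, 91485238 to 91507441, plus strand) was at 511, 436 and 386 CPM in WT, against 356, 262 and 232 CPM in those labelled GLUT1EC-/- (log2 fold change -0.65 with SE 0.19, edgeR adjusted p = 0.173). Ifnar2 was at 230, 188 and 222 CPM in WT, against 147, 155 and 146 CPM in those labelled GLUT1EC-/- (log2 fold change -0.51 with SE 0.13, edgeR adjusted p = 0.121). Neither chain overlapped between the groups. Ifnar2 shares exon positions with Gm21970 on its strand, which makes its count less certain.

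Of the transcription factors, Irf9, the DNA-binding part of the complex with Stat2, had the smallest SE. It was at 153, 152 and 134 CPM in WT, against 94.7, 102 and 103 CPM in those labelled GLUT1EC-/- (log2 fold change -0.55 with SE 0.12, edgeR adjusted p = 0.0801), though it shares exon positions with Rnf31. Irf7, which drives interferon alpha genes, was at 152, 123 and 165 CPM in WT, against 63.7, 106 and 97.7 CPM in those labelled GLUT1EC-/- (log2 fold change -0.72 with SE 0.21, edgeR adjusted p = 0.166). Its exons overlap those of Phrf1 on the other strand.

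Stat2 and Irf1 overlapped between the groups through GLUT1EC-/- 2 alone. Stat2 was at 163 to 194 CPM in WT, against 114, 177 and 106 CPM in those labelled GLUT1EC-/- (log2 fold change -0.43, SE 0.21). Irf1, which interferon gamma and inflammatory cytokines both induce (chromosome 11, 53770014 to 53778374, plus strand), was at 364, 406 and 261 CPM in WT, against 223, 381 and 244 CPM in those labelled GLUT1EC-/- (log2 fold change -0.28, SE 0.24). Its exons overlap those of Gm17334 on the other strand. Usp18, the protease that strips Isg15 from proteins and dampens the receptor, was at 25.3 to 31.1 CPM against 14.6 to 19.0 CPM, without overlap (log2 fold change -0.84 with SE 0.17, edgeR adjusted p = 0.0556).

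Compared per length of exon, which allows levels of different genes to be set side by side, Ifitm3 led with 517 CPM per kilobase in WT. Irf1 (86.4), Ifnar1 (74.8), Ifnar2 (64.1), Bst2 (56.2) and Isg15 (48.8) came next on this scale. Oas3 (0.0530) and Mx1 (0.464) were the lowest. C57BL/6 mice are known to carry a defective Mx1 gene.

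The 3 libraries labelled GLUT1EC-/- were low in different genes. GLUT1EC-/- 1 was the lowest of its group for 17 of the 37 genes, among them Ifit1, Ifit2, Ifit3, Isg15, Mx2 and Irf7. GLUT1EC-/- 2 was the lowest for 14, among them Oas1a, Oas2, Oasl2, Ifi44, Parp14 and Samd9l, yet it was at or above the lowest WT library for 11, among them Ifit2, Ifit3, Mx2, Stat2 and Irf1 (Ifi27l2a counts among both). GLUT1EC-/- 3 was the lowest for 6, including Rsad2 and both receptor chains. The number of genes below 50% of the WT mean was 8, 8 and 2 in GLUT1EC-/- 1 to 3, and Oas2 was the 1 gene below it in every one. Summed over the 37 genes the level was 2949 to 3235 CPM in the WT libraries and 2068 to 2374 CPM in those labelled GLUT1EC-/-. Within WT, WT 1 was the highest for 25 genes. The medians relative to the WT mean, on the log2(CPM + 0.5) scale, were -0.62, -0.52 and -0.50 in GLUT1EC-/- 1 to 3.

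**Figure D3:**
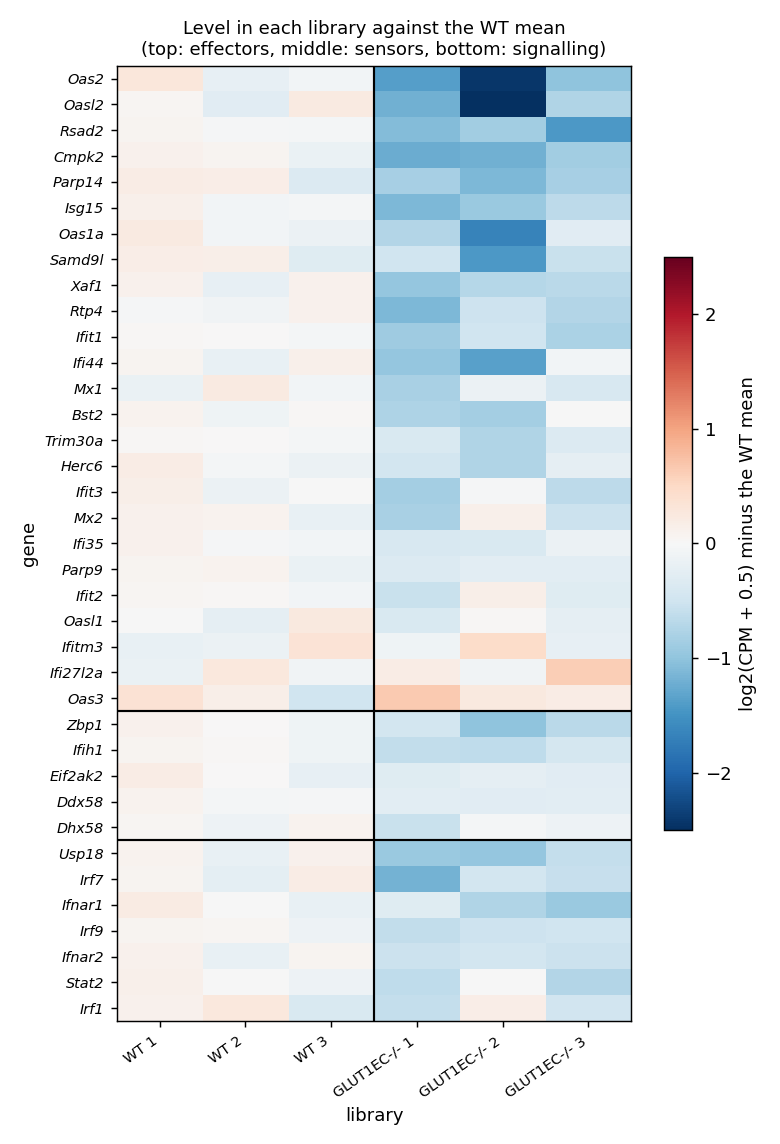
The colours show log2(CPM + 0.5) minus the WT mean in each of the 6 libraries (columns) for the 37 genes (rows), with effectors, sensors and signalling genes from top to bottom. Blue covers most of the GLUT1EC-/- columns, whose medians are -0.62, -0.52 and -0.50, while GLUT1EC-/- 2 mixes the deepest blue for Oas2 and Oasl2 with near-WT shades for Ifit2, Ifit3, Stat2 and Irf1.

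Animal numbers in the 200s (2 WT libraries and GLUT1EC-/- 1) and in the 500s (WT 3 and the other 2) were compared within themselves. The median log2 difference of the 37 genes was -0.70 within the 200s and -0.46 within the 500s, and 34 of 37 genes were lower in each. Over all 14838 tested genes, 7379 and 7491 were lower. With the number series as a term, 19 of the 37 genes were lower with an unadjusted p under 0.05 (edgeR). In that fit 1569 of all 14838 tested genes had an unadjusted p under 0.05 in either direction. Xist and Ddx3y counts marked WT 3 and GLUT1EC-/- 3 as male. The median was -0.63 among the female and -0.38 among the male libraries, with 34 and 35 of 37 genes lower. Over all 14838 tested genes, 7381 and 7403 were lower. With sex as a term Rsad2 and Cmpk2 passed. Each of these comparisons sets 1 library against 1 or 2, or 2 against 2, and was not tested within itself.

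The rest of the interferon system was read from lists of pathway genes. Interferon genes themselves were nearly silent: of 21, 15 had 0 counts in all 6 libraries, and none reached the filter. Ifng, the most abundant, had 1 to 17 counts, and Ifnb1 at most 3 counts in a library, so no difference between the groups was detectable at this depth. Of 22 other receptor and transducer genes, 0 rose and 0 fell in edgeR (DESeq2 called 1 lower, limma-voom 0). An unadjusted p under 0.05 in edgeR was found for 2 (9.09%, against 14.5% of all tested genes). The median log2 fold change was 0.00, with a range of -0.94 to 0.34. In 4 of the 22 every library labelled GLUT1EC-/- was below every WT library (18.2%, against 11.2% of all tested genes). In 1 every one was above. Socs3, a feedback inhibitor and the most abundant of the 22, was at 845 ± 30.8 and 848 ± 396 CPM (SD, n = 3, WT first). Of 22 genes that sense nucleic acids upstream of interferon, 0 rose and 0 fell in edgeR (DESeq2 called 1 lower and 2 higher, limma-voom 0). In edgeR 5 had an unadjusted p under 0.05 (22.7%, against 14.5% of all tested genes), and the median was 0.02. Without overlap 2 were lower and 3 higher, against 11.2% and 11.7% of all tested genes. Trim25, which helps RIG-I signal, and Adar, which edits double-stranded RNA, were the most abundant and had log2 fold changes of -0.25 and -0.26.

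A list of 65 other interferon-stimulated genes gave 61 tested, of which 1 fell, 2 rose and 58 did not pass in edgeR, while DESeq2 called 16 lower and 3 higher and limma-voom 1 and 2. Its median log2 fold change was -0.46, and in 25 of 61 every library labelled GLUT1EC-/- was below WT (41%, against 11.2% of all tested genes) and in 5 every one was above. The gene that fell was Apol9b, an apolipoprotein L family member, from 3.0, 3.48 and 3.82 CPM to 0.862, 0.478 and 0.893 CPM (edgeR log2 fold change -2.20 at an adjusted p = 0.0262). It has a near-identical neighbour, Apol9a, so its count is uncertain. The genes that rose were Ifi30, a lysosomal thiol reductase of antigen-presenting cells, from 13.9, 14.6 and 16.0 CPM to 28.6, 28.6 and 36.8 CPM (edgeR adjusted p = 0.0232), and Ms4a6d, a myeloid membrane gene, from 3.09, 4.24 and 3.38 CPM to 10.1, 9.53 and 13.3 CPM (edgeR adjusted p = 0.0207).

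**Figure D4:**
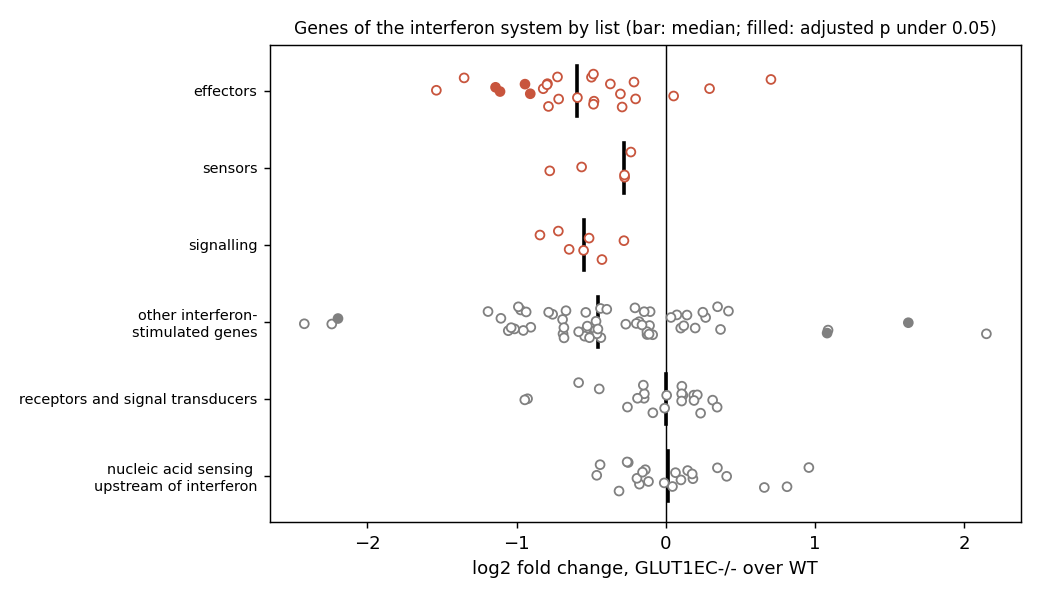
Each point is the edgeR log2 fold change of 1 tested gene (x axis), by list, with black bars at the medians and filled points at an adjusted p under 0.05. The medians are -0.59, -0.28 and -0.55 for effectors, sensors and signalling genes, -0.46 for other interferon-stimulated genes, and 0.00 and 0.02 for the other transducer and sensing genes.

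Some markers of blood cells also differed between the groups, in either direction. Of 14 blood monocyte markers, 5 fell, 1 rose and 8 did not pass, and none was at 0 in all libraries. Their summed level was 436 to 609 CPM in WT, against 782 to 879 CPM in those labelled GLUT1EC-/-, carried by Ace, which rose and which endothelial cells also express. By value 10 of the 14 were lower and 4 higher, the latter being Ace and, without a call, Vcan, Chi3l3 and Ccr2 (log2 fold changes 1.65, 1.43 and 0.53). The sum of Cd300e, Treml4 and Emr4, picked after their values were seen, was 16.3 to 50.7 CPM in WT, against 0.209 to 1.2 CPM in those labelled GLUT1EC-/-. Without Ace, also a choice made after seeing the values, the sum of the list was 78.8 to 204 CPM in WT, against 27.9 to 42.9 CPM in those labelled GLUT1EC-/-. Of 12 tested lymphocyte and NK cell markers, 2 fell (Cd79a and Gzma), with summed levels of 26.6 to 33.8 and 11.9 to 23.1 CPM. Of 14 microglia markers, 3 rose, among them C1qc and Trem2, with sums of 559 to 661 and 821 to 1842 CPM. Markers of plasmacytoid dendritic cells, which are known as strong interferon producers, gave 0 calls of 5 in edgeR and 1 lower in DESeq2. In edgeR 2 had an unadjusted p under 0.05, in opposite directions, each under 1 CPM in every library. These were Ly6d, lower, and Cox6a2, higher (log2 fold changes -2.23 and 2.80). Siglech is also on the microglia list, so the 5 are not specific to these cells. The part of any of the cell types above in the level of the interferon-stimulated genes was not tested.

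**Figure D5:**
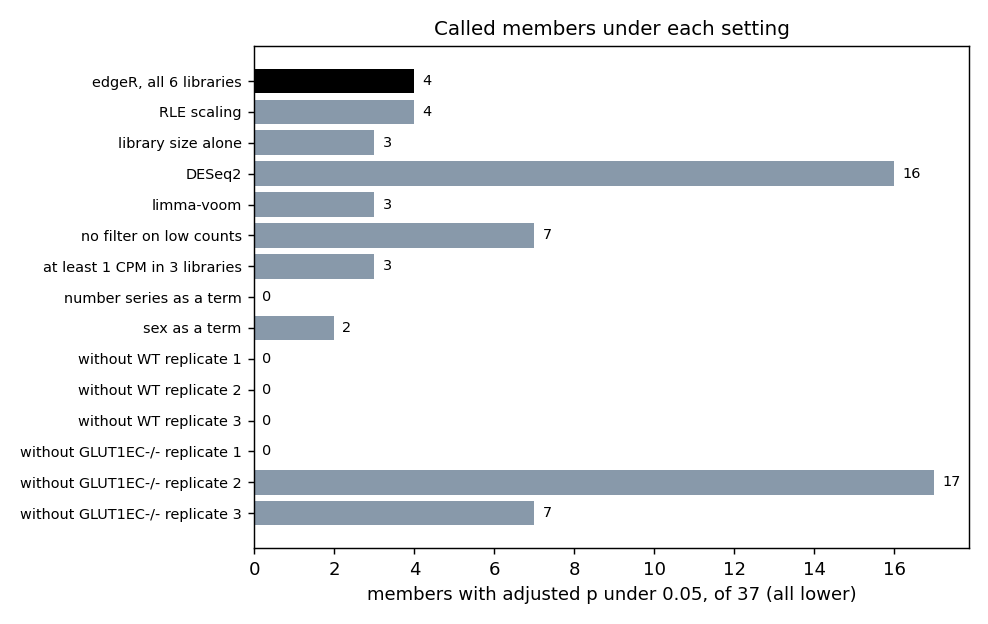
Bars give the number of the 37 genes with an adjusted p under 0.05 (x axis) under each fit (y axis), all of them lower in GLUT1EC-/-. It is 4 with all 6 libraries in edgeR, 17 without GLUT1EC-/- 2, 16 in DESeq2, and 0 without any 1 WT library, without GLUT1EC-/- 1 or with the number series as a term. Calls over all genes, not plotted, numbered 194 with all 6 libraries in edgeR, 862 without GLUT1EC-/- 2 and 879 in DESeq2.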

How the data were processed

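Single-end reads of stranded mRNA libraries were aligned with STAR to GRCm38 and counted with featureCounts, per the submitters' processing notes; versions, annotation, strand setting and filters are not given in the sources used here. Raw counts by gene symbol were deposited, with 1 file for each library and a symbol in each row. Libraries were grouped by genotype label. The 3 libraries of a group carry separate animal numbers, and nothing pairs them.

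The test was the quasi-likelihood F test of edgeR 4.0.16 (R 4.3.3) on all genes of the 6 libraries, genotype as the only term, with TMM scaling, filterByExpr (minimum count 10, total 15), robust dispersions and Benjamini-Hochberg adjustment over 14838 genes at 0.05. The biological coefficient of variation was 23.2%. CPM were computed with the TMM factors; errors are SD over 3 libraries, and SE is the log2 fold change over the square root of F. Values within number series or sexes use log2(CPM + 0.5). Alternatives used DESeq2 1.42.0, limma 3.58.1, other scalings, filters and terms, and each library left out. The fit was tested on simulated counts.

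The genes, lists and motifs were chosen with earlier results of these data known, so no test over a list is given. Named genes are those called, the 2 most abundant per role and, for pathway lists, called genes or the 2 most abundant; others were named after their values were seen. Listed names absent from the files were matched to older symbols through RefSeq synonyms. Positions and exons are from GENCODE M21, and shared 100-base windows (the read length) from its transcripts. Some results for single pathway genes are not reported here.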

Additional observations from a re-analysis of the deposited data

How the results depend on the processing

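Over 14 alternative fits, 36 of the 37 genes kept the sign of their log2 fold change (Oas3 over 13, since the 1 CPM filter left it out). The exception was Ifitm3, at -0.021 with library size alone, -0.064 with the number series as a term, and -0.19 to 0.24 with 1 library left out. The genes that fell numbered 16 in DESeq2, 7 with no filter on low counts, 0 with the number series as a term, 2 with sex as a term, and 0 to 17 with 1 library left out. Over all genes the calls numbered 879 in DESeq2, 14 with the number series as a term, 113 with sex as a term, and 0 to 862 with 1 library left out. Without WT 1, edgeR called 0 genes, with 1248 at an unadjusted p under 0.05. Why the calls depend on these choices was not tested. A total of 16 of the 37 genes passed in none of the alternatives. With 1 library left out, no gene moved by more than 1.39-fold. The difference in effect between the series (edgeR interaction, 500s minus 200s) ran from -0.516 for Oasl2 to 1.555 for Oas3 on the log2 scale. Whether the series differ cannot be decided from it, because GLUT1EC-/- in the 200s and WT in the 500s were 1 library each. With 1 base fewer at its 5′ or 3′ end, the ISRE core was found in 17 and 15 of 27 genes, against 12.1% and 9.76% of the table. No paired analysis was possible because replicate numbers were given in accession order and the labels pair no animals.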

Other observations

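The genes below were picked after their values were seen. Relatives of the listed genes did not all take such values, since Trim14 had a log2 fold change of -0.09, Parp11 overlapped between the groups, and Ifitm1 and Gm14446 (Ifit1bl1) were higher by value, at 1.09 and 2.15. Trim34a, Trim12c, Trim12a and Trim30d, which belong to the same gene family as Trim30a, had log2 fold changes of -1.10, -1.06, -0.69 and -0.69, without overlap between the groups and without a call (edgeR adjusted p = 0.184 to 0.278). In each of them GLUT1EC-/- 2 was the lowest library, at 4.96 CPM for Trim12c against 24.9 to 28.7 CPM in WT. Parp10, Parp12 and Dtx3l, relatives or partners of Parp9 and Parp14, were lower by value without a call, with edgeR adjusted p = 0.0573, 0.0785 and 0.105 at log2 fold changes of -0.67, -0.53 and -0.68. Il10rb, a receptor chain shared by interferon lambda and interleukin 10, was at 170 to 190 CPM in WT, against 113, 48.0 and 117 CPM in those labelled GLUT1EC-/- (edgeR log2 fold change -0.94 at an adjusted p = 0.2). Cd274, which encodes PD-L1, was at 34.1 to 51.9 CPM in WT, against 16.7 to 25.0 CPM in those labelled GLUT1EC-/- (edgeR log2 fold change -1.04 at an adjusted p = 0.0661).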
